A study of Mus musculus with 6 samples.

Results

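The nuclear genes for the subunits of the oxidative phosphorylation complexes were examined in prospective lens tissue with and without Pax6. They were taken by platform gene symbol, as every probe whose symbol starts with Nduf, Uqcr, Cox4 to Cox8 or Atp5 or is Sdha, Sdhb, Sdhc or Sdhd. This gave 127 probes of 85 genes, out of 29976 probes of 17711 genes that carry 1 symbol on the array. The symbol rule also brings in 8 Ndufaf genes, which encode complex I assembly factors and not subunits, and these were kept apart in the counts by complex. The Pax6 knockout group was 3 embryos of genotype Pax6-/-, whose tissue is labelled surface ectoderm, and the wild type group was 3 embryos whose tissue is labelled lens placode, the thickened head ectoderm that forms the lens. Pax6 encodes a transcription factor needed for lens formation. Both groups were at embryonic day 9.5 and of a mixed FVB and 129 background, and no source used here states which part of Pax6 is deleted. The prospective lens tissue of both eyes of 1 embryo was cut from 10 micrometre sections by laser microdissection, 15 ng of its RNA was amplified, and each embryo was measured on its own Illumina BeadArray.

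Oxidative phosphorylation takes place in the inner mitochondrial membrane. Complex I passes electrons from NADH, and complex II from succinate, to ubiquinone. Complex III hands them on through cytochrome c to complex IV, which reduces oxygen, and complex V, the ATP synthase, makes ATP from the proton gradient that complexes I, III and IV build. Most subunits are encoded in the nucleus and imported, and a core set of complexes I, III, IV and V is encoded by mitochondrial DNA. The lens placode is an avascular epithelium, and the later lens fibre cells lose their mitochondria.

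A probe was taken as detected where the detection p-value given beside its signal was under 0.05, and a probe detected on at least 3 of the 6 arrays was tested. Of the 127 probes, 101 passed, and they covered 77 of the 85 genes. All 32 complex I subunit genes, 6 of the 8 assembly factor genes, all 4 complex II genes, all 7 complex III genes, 12 of 18 complex IV genes (with Ndufa4, now counted as a complex IV subunit) and all 16 complex V genes were tested. A gene was represented by its brightest probe, averaged over 15 to 68 beads per array, and that probe was detected on all 6 arrays for 74 of the 77 genes. Values are log2 intensities after background correction and quantile normalization, and a change is the knockout mean minus the wild type mean, with the standard error (SE) of the limma model.

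No oxidative phosphorylation gene passed the test between the genotypes. The count at an adjusted p under 0.05 was 0 of 77, beside 0.157% of all 14686 genes and unnamed probes tested, and the smallest adjusted p of a member was 0.406 (limma). At an unadjusted p under 0.05, 2 members were higher in the knockout, Ndufa2 and Ndufa8, and 3 were lower, Atp5g3, Ndufa6 and Ndufs8. Over everything tested, 3.49% were higher and 3.96% lower at that level, so the members' counts were near the background. The 3 knockout values all lay above the 3 wild type values for 2 members and all below them for 4, against 5.66% and 6.48% of everything tested.

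The changes of the members were small. They ran from -0.89 for Ndufa6 to 0.74 for Ndufa2, with a median of -0.038 and quartiles of -0.18 and 0.04, and 45 of 77 were below 0. Over everything tested the median was 0.0022, the quartiles were -0.19 and 0.19, and 49.5% were below 0. In size, 60 of the 77 changes were under 0.25 on the log2 scale and 5 were over 0.5. The 95% interval of the change lay within a doubling or halving, 1 on the log2 scale, for 63 members (81.8%), against 63.5% of everything tested, and within 0.5 for 26 members (33.8%), against 15.9%. The median SE of a change was 0.196 over the members and 0.273 over everything tested. The members were also brighter, with a median level of 8.69 against 6.65 for everything tested. Cytosolic ribosomal protein genes, at 9.86, had 96.2% of intervals within a doubling or halving. The part of brightness in the narrower intervals was not tested. The intervals of 14 members reached past a doubling or halving, and for those genes a change of that size was not resolved with 3 embryos a genotype. In bulk tissue, fewer cells of a type and less RNA per cell cannot be told apart.

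**Figure D1:**
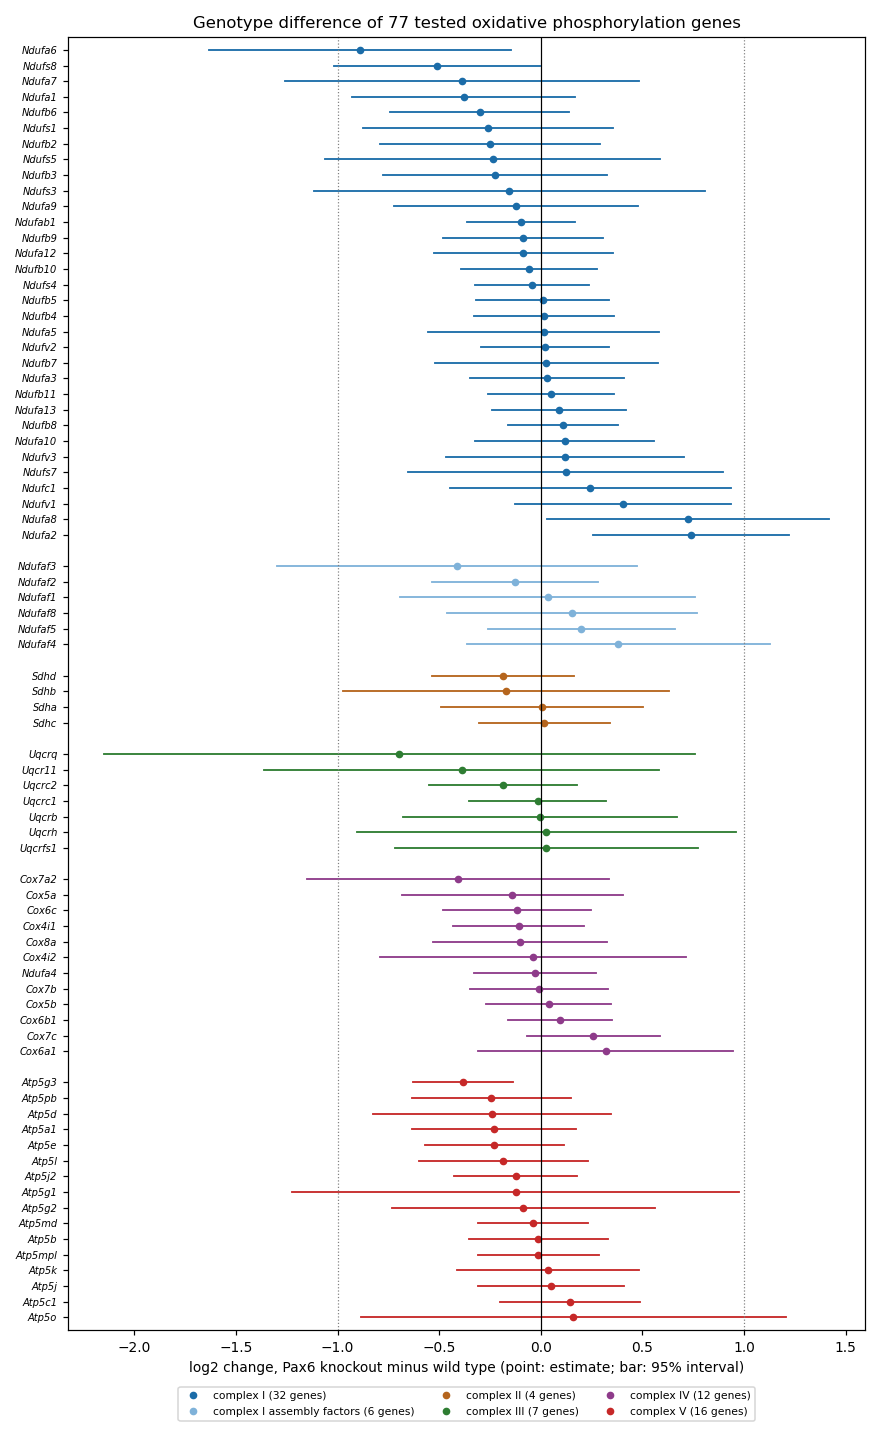
Log2 change of each of the 77 tested genes, Pax6 knockout minus wild type, grouped by complex and ordered within it. Points are the limma estimates from 3 embryos per genotype, bars are 95% intervals and dotted lines mark a doubling and a halving. Most intervals cross 0 and 63 of 77 stay between the dotted lines, with Ndufa2 and Ndufa8 to the right and Ndufa6, Ndufs8 and Atp5g3 to the left of 0.

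The labels and the tissue were checked with marker genes. The brightest Pax6 probe read 8.97, 9.37 and 9.59 in the 3 knockout embryos and 10.39, 10.03 and 9.74 in the 3 wild type embryos. The deleted part is not known, so the lower knockout values check the labels only in part. Of 10 tested lens placode and surface ectoderm markers, 2 were higher in the knockout. The mean level of the 10 was 8.24 to 8.34 in knockout and 9.07 to 9.36 in wild type embryos. Of these, Maf and Prox1, transcription factors of the lens, fell the most in the knockout, with changes of -3.86 and -2.22 (adjusted p = 0.00477 and 0.0337, limma). The epithelial genes Krt8, Krt18, Cdh1 and Epcam were detected in both genotypes, with changes of 0.14, 0.15, -0.18 and -0.38, none of them called. Foxe3 was not tested. All 7 tested optic vesicle markers were higher in the knockout, with a mean level of 6.72 to 7.22 in knockout and 5.99 to 6.48 in wild type embryos. Red cell markers, 3 of 5 tested higher, averaged 7.26 to 8.59 in knockout and 6.34 to 7.75 in wild type embryos. Head mesenchyme and neural crest markers, 5 of 7 tested higher, averaged 6.70 to 7.25 in knockout and 6.76 to 7.02 in wild type embryos, and Col1a1, Foxc1, Sox10, Dcn and Lum were not tested. Endothelial markers, 4 of 4 tested higher, averaged 5.80 to 6.44 in knockout and 5.79 to 6.25 in wild type embryos, and Pecam1 and Cdh5 were not tested. Xist read 4.95 to 5.12 in the knockout and 9.19 to 9.43 in wild type embryos, and the tested Y-linked genes ran the other way, so that genotype and sex of the embryos cannot be told apart. The part of these marker and sex differences in the members' values was not tested.

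Complex I is the largest of the 5 complexes, and its 32 tested subunits gave 4 of the 5 members at an unadjusted p under 0.05. The median change of the 32 was -0.017, with 16 above and 16 below 0. The 6 core subunits, the conserved catalytic part, had a median of -0.066, and the 26 accessory subunits a median of -0.017. Both groups were split evenly between higher and lower.

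Ndufa2, an accessory subunit with a thioredoxin-like fold in the peripheral arm, read 9.47, 8.91 and 9.32 in the 3 knockout embryos, against 8.72, 8.58 and 8.17 in the wild type embryos. All knockout values were above all wild type values. The change was 0.74 (SE 0.21, 1.67-fold), with an adjusted p of 0.413 (limma).

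Ndufa8, an accessory subunit on the intermembrane space side, read 6.63, 6.43 and 6.95 in knockout embryos, against 5.90, 6.10 and 5.84 in wild type embryos. Here too the groups did not overlap, with knockout 2 the nearest to the wild type values. The change was 0.72 (SE 0.30, 1.65-fold), with an adjusted p of 0.654 (limma).

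Ndufa6, an accessory subunit of the LYR motif family that binds the mitochondrial acyl carrier protein, had the lowest change of all members. It read 5.77, 6.35 and 6.47 in knockout embryos, against 6.89, 7.26 and 7.11 in wild type embryos. All knockout values were below all wild type values, and knockout 1 was the lowest. The change was -0.89 (SE 0.32), with an adjusted p of 0.577 (limma). Ndufab1, the acyl carrier protein itself, read 10.08, 10.31 and 10.19 in knockout and 10.32, 10.27 and 10.28 in wild type embryos, a change of -0.096 (SE 0.12).

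Ndufs8, a core subunit that holds iron-sulphur clusters on the path to ubiquinone, read 7.31, 7.34 and 7.38 in knockout embryos, against 7.63, 7.82 and 8.10 in wild type embryos. The knockout values lay close together and below a wider spread in wild type. The change was -0.51 (SE 0.22), with an adjusted p of 0.670 (limma). Ndufs1, the largest core subunit and also an iron-sulphur protein, was, with Ndufa6 and Ndufs8, the last of 3 complex I members in which all knockout values, here 6.80, 6.78 and 6.82, lay below the wild type values, 7.27, 6.95 and 6.96. Its change of -0.26 (SE 0.27) had an adjusted p of 0.926.

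The other core subunits did not share a direction. Ndufv1, which binds NADH and the flavin, read 8.97, 8.81 and 9.41 in knockout embryos, against 8.94, 8.78 and 8.25 in wild type embryos, a change of 0.41 (SE 0.23, adjusted p = 0.798, limma). Ndufv2 differed by 0.022, Ndufs3 by -0.15 and Ndufs7 by 0.12, all with overlapping groups.

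Of the members on the X chromosome in RefSeq, Ndufa1, an accessory subunit of complex I, read 9.22, 9.86 and 10.20 in knockout and 9.95, 10.13 and 10.34 in wild type embryos. The groups overlapped and the change was -0.38 (SE 0.24, adjusted p = 0.834, limma). Ndufb11, also a complex I accessory subunit, differed by 0.050 (SE 0.14) but was detected on only 2 knockout arrays and 1 wild type array. Cox7b, the third X-linked member tested and a subunit of complex IV, differed by -0.0091 (SE 0.15).

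Among the 23 complex I subunits that are not singled out here by a small p, a probe conflict, isoforms or X linkage, 13 were lower and 10 higher, between -0.39 for Ndufa7 and 0.41 for Ndufv1. The complex I assembly factors had 4 genes higher and 2 lower and a median of 0.094, with Ndufaf4 at 0.38 and Ndufaf3 at -0.41, adjusted p = 0.888 and 0.911. The second Ndufaf3 probe gave 0.24, so the direction of that gene was not settled. Ndufaf6 was detected on no array and Ndufaf7 on 1 knockout array, and neither was tested.

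**Figure D2:**
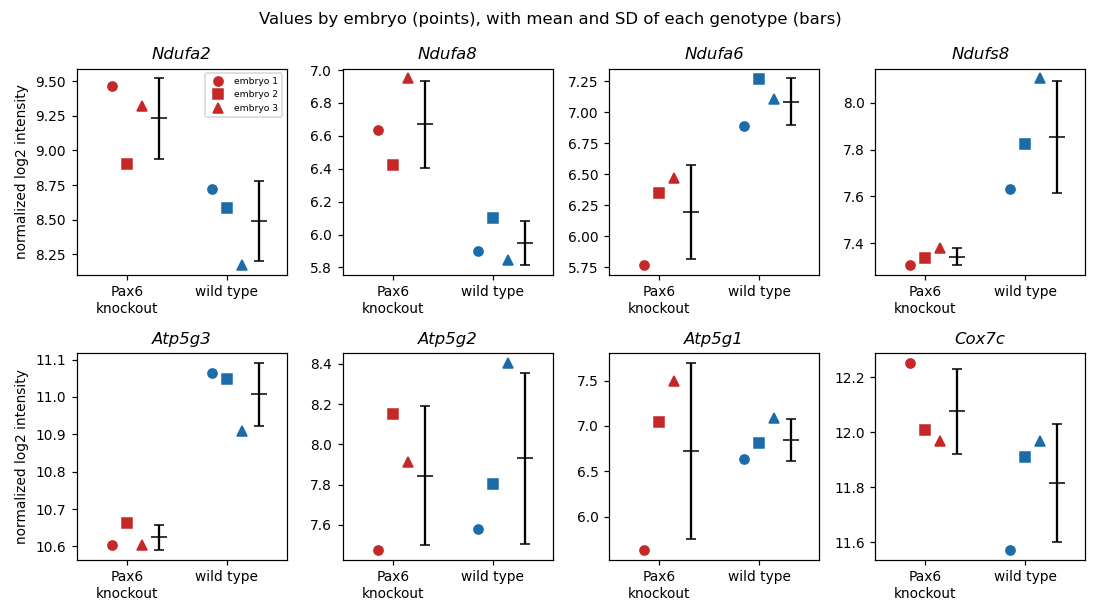
Normalized log2 intensity of 8 genes in each embryo, Pax6 knockout left and wild type right, with embryos 1 to 3 as circle, square and triangle and the mean and SD as bars. The groups do not overlap for Ndufa2, Ndufa8, Ndufa6, Ndufs8 and Atp5g3, and overlap or meet for Atp5g2, Atp5g1 and Cox7c. Each panel has its own axis range.

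Complex II, which also belongs to the tricarboxylic acid cycle, had changes between -0.18 and 0.018 in its 4 subunits, none of them called. Sdha, the flavoprotein that oxidises succinate, read 7.82, 8.21 and 8.04 in knockout embryos, against 8.21, 8.15 and 7.70 in wild type embryos, a change of 0.0049 (SE 0.22). Sdhb, the iron-sulphur subunit, differed by -0.17 (SE 0.35), and the membrane anchors Sdhc and Sdhd by 0.018 (SE 0.14) and -0.18 (SE 0.15). Sdhd had the smallest adjusted p of the 4, 0.883 (limma). The median was -0.084, and all 4 intervals stayed within a doubling or halving.

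Complex III had a median change of -0.016, with 5 of the 7 subunits taken by symbol below 0, and held the most variable member. Its median was not stable in size, at -0.20 to -0.079 with any 1 array left out and -0.10 with array weights. Uqcrq, a small subunit beside cytochrome b, read 7.13, 5.35 and 6.41 in knockout embryos, against 7.77, 5.72 and 7.51 in wild type embryos. Embryo 2 of each genotype was far below the other embryos of its group, and the change of -0.70 had an SE of 0.63, the highest of the 77 members. Uqcr11, another small subunit, read 6.15, 6.77 and 6.73 in knockout embryos, against 7.20, 6.10 and 7.51 in wild type embryos, with a change of -0.39 (SE 0.42). The core proteins Uqcrc1 and Uqcrc2, which face the matrix, were measured more closely, with changes of -0.016 (SE 0.15) and -0.19 (SE 0.16). Uqcrfs1, the Rieske iron-sulphur protein, differed by 0.028 (SE 0.33). Uqcrb and the hinge protein Uqcrh differed by -0.0041 (SE 0.29) and 0.027 (SE 0.41). The smallest adjusted p in the complex was 0.888, for Uqcrc2.

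Complex IV, cytochrome c oxidase, had 8 of its 12 tested nuclear subunits below 0 and a median of -0.034. Cox7c, a ubiquitous small subunit, read 12.25, 12.01 and 11.97 in knockout embryos, against 11.57, 11.91 and 11.97 in wild type embryos. Knockout 3 and wild type 3 met at the same value, and the change was 0.26 (SE 0.14, adjusted p = 0.790, limma). Its second probe gave 0.20. Cox6a1 read 7.91, 7.81 and 7.49 in knockout embryos, against 6.94, 7.70 and 7.61 in wild type embryos, with a change of 0.32 (SE 0.27). Cox7a2 read 7.36, 6.82 and 7.21 in knockout embryos, against 8.04, 7.58 and 6.99 in wild type embryos, with a change of -0.41 (SE 0.32). All of these overlapped between the genotypes.

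Several complex IV subunits have tissue isoforms. Cox4i1, the common form of the regulatory subunit, read 9.54, 9.69 and 9.94 in knockout embryos, against 9.79, 9.93 and 9.78 in wild type embryos, a change of -0.11 (SE 0.14). Cox4i2, the form known from lung and from low oxygen, differed by -0.039 (SE 0.33). Cox5a and Cox5b differed by -0.14 (SE 0.24) and 0.038 (SE 0.13), Cox6b1 by 0.095 (SE 0.11), Cox8a by -0.10 (SE 0.19), Cox6c by -0.12 (SE 0.16) and Ndufa4 by -0.028 (SE 0.13). The heart and skeletal muscle forms Cox6a2 and Cox8b and the testis forms Cox6b2, Cox7b2 and Cox8c were detected on no array of either genotype. Cox7a1, another muscle form, was detected on 2 knockout arrays and 0 wild type arrays, read 4.80, 6.02 and 5.27 in knockout embryos and 4.82, 4.96 and 4.94 in wild type embryos, and was not tested. Its level in wild type is only a bound, and knockout 1 was as low as the wild type embryos.

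Complex V, the ATP synthase, had a median change of -0.10, with 12 of its 16 genes below 0. The order of the 5 complex medians changed with the setting, and that of complex V was -0.035 with array weights and 0.014 without knockout 1. Atp5g3, which encodes the c subunit of the membrane ring, had the smallest p of all members. It read 10.60, 10.66 and 10.60 in knockout embryos, against 11.06, 11.05 and 10.91 in wild type embryos. Both groups were tight and did not overlap, and the SE of the change was the lowest of the 77 members. The change was -0.38 (SE 0.11, 95% interval -0.63 to -0.14), with an adjusted p of 0.406 (limma).

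The same mature c subunit is made from 3 genes in the mouse, which differ in the part that targets the protein to mitochondria. Atp5g2 read 7.47, 8.15 and 7.91 in knockout embryos, against 7.58, 7.80 and 8.41 in wild type embryos, a change of -0.085 (SE 0.28). Atp5g1 read 5.63, 7.04 and 7.50 in knockout embryos, against 6.64, 6.81 and 7.09 in wild type embryos, a change of -0.12 (SE 0.48). Knockout 1 was the lowest and knockout 3 the highest of the 6 embryos for Atp5g1. The interval of Atp5g1, from -1.22 to 0.98, contains the Atp5g3 estimate, and the difference between the genes' changes was not tested.

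The 5 subunits of the catalytic F1 part had a median change of -0.23, and 4 were below 0. Atp5a1, the alpha subunit, read 8.75, 9.04 and 9.21 in knockout embryos, against 9.01, 9.27 and 9.41 in wild type embryos, a change of -0.23 (SE 0.18) with overlapping groups. Atp5b, the catalytic beta subunit, differed by -0.013 (SE 0.15), Atp5c1, the rotating gamma subunit, by 0.14 (SE 0.15), and Atp5d and Atp5e, the delta and epsilon subunits of the central stalk, by -0.24 (SE 0.26) and -0.23 (SE 0.15). The smallest adjusted p of the 5 was 0.844, for Atp5e. In the peripheral stalk, Atp5pb differed by -0.24 (SE 0.17), Atp5j by 0.051 (SE 0.16) and Atp5o by 0.16 (SE 0.46). The second probe of Atp5pb gave 0.23, opposite in sign to the brighter one. The second probe of Atp5j was detected on 0 knockout and 3 wild type arrays, so that it had only a bound in the knockout. The small membrane subunits Atp5j2, Atp5k, Atp5l, Atp5md and Atp5mpl lay between -0.18 and 0.036.

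Many nuclear genes of respiration are known to carry sites for the transcription factors NRF1 and YY1, for ETS factors such as GABP, and for Sp1. RefSeq promoter windows of the build GRCm38.p6, from 250 bases before to 50 after the transcription start, were matched by symbol for 70 of the 85 genes, in 75 windows. No window was matched for Ndufa2, Ndufb9, Ndufs1, Ndufaf6, Sdhc, Uqcrb, Uqcrc2, Uqcrq, Cox4i1, Cox4i2, Cox6a2, Cox6c, Cox8c, Atp5a1 and Atp5mpl. Each motif was searched as exact letters on both strands. The NRF1 motif GCGCATGCG was in 9 of the 75 windows (12.0%) and in 1.75% of all 32851 windows in the table, and the YY1 motif AAGATGGC was in 10 (13.3%) and in 2.75% of all. The ETS motif CCGGAAGT was in 4 (5.33%) and in 3.89% of all, and the Sp1 motif GGGCGG in 35 (46.7%) and in 35.7% of all. Windows of the cytosolic ribosomal protein genes held them at 3.75% for NRF1, 10.0% for YY1, 13.75% for ETS and 55.0% for Sp1. These are descriptions of letters and no measure of binding.

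The windows of the 3 c subunit genes are shown because they encode the same mature protein and Atp5g3 had the smallest p of all members, and that of Ndufa8 because it is the 1 gene at an unadjusted p under 0.05 with an NRF1 match. Capitals mark matches to the NRF1 and Sp1 letters, on either strand. All 4 genes are on the minus strand, and the sequences read 5′ to 3′ along the gene. The windows are chr2:73911277-73911576 for Atp5g3, chr15:102670998-102671297 for Atp5g2, chr11:96075582-96075881 for Atp5g1 and chr2:36049289-36049588 for Ndufa8.
Atp5g3: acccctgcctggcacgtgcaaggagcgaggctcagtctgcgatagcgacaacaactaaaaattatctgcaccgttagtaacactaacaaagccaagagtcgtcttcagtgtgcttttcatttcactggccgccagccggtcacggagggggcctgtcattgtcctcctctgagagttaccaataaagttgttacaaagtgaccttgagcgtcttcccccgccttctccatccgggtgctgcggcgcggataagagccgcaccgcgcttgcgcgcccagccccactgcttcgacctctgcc
Atp5g2: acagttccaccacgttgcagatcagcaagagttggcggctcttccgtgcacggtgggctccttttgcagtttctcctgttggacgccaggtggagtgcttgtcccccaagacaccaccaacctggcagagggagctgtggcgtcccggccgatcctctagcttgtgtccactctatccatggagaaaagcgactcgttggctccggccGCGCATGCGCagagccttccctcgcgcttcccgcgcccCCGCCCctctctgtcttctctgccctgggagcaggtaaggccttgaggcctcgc
Atp5g1: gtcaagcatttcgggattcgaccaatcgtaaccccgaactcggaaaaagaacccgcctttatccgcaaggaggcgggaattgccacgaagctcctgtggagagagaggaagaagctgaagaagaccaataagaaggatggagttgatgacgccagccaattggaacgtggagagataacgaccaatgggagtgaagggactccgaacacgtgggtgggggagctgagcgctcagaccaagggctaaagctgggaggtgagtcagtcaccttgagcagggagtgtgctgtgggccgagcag
Ndufa8: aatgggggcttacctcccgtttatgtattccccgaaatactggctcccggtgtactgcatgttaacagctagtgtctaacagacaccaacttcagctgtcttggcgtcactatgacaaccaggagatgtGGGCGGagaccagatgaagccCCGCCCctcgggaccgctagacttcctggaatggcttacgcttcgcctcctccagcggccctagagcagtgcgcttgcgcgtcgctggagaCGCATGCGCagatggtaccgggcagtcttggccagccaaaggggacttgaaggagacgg

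The Atp5g2 window held the NRF1 letters on both strands, from 42 and 41 bases before the start, and the Sp1 letters 4 bases before it. Ndufa8 had the NRF1 letters 9 bases before the start and the Sp1 letters 121 and 100 bases before it. The windows of Atp5g3 and Atp5g1 had no match to any of the 4 motifs. The 9 genes with the NRF1 letters had a median change of 0.036, with 4 below 0, and the 10 with the YY1 letters a median of 0.040, also with 4 below 0. The 4 genes with the ETS letters had a median of -0.13, with 3 below 0, and the 31 tested genes with the Sp1 letters a median of -0.038, with 17 below 0. The factors themselves, named for their motifs, did not pass the test, with Nrf1 at -0.086 (SE 0.20), Gabpa at -0.083 (SE 0.28) and Yy1 at -0.043 (SE 0.30). Nrf1 read 9.13, 8.88 and 9.17 in knockout embryos, against 8.84, 9.07 and 9.52 in wild type embryos, with overlapping groups.

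The medians of the complexes were small beside the spread between embryos. The SD between embryos of a genotype in the median deviation of a complex was 0.149 for complex V, above the size of its median change, and 0.076 to 0.189 for the other 4. Knockout 1 stood apart from the other 5 arrays in the members. The median deviation of the 77 genes from their own 6-array means was -0.13 in knockout 1, 0.025 and 0.032 in knockout 2 and 3, and -0.012, 0.028 and 0.052 in wild type 1, 2 and 3. Knockout 1 was the lowest of the 6 arrays for 32 of the 77 genes (41.6%), against 23.2% of everything tested. For complex V its median deviation was -0.27, and for 53 cytosolic ribosomal protein genes, a set of other highly expressed housekeeping genes, it was -0.21. Its median raw signal was 41.7, against 47.3 to 49.8 on the other 5 arrays. Over both genotypes the 53 ribosomal protein genes had a median change of -0.024, with 30 below 0, and 51 intervals stayed within a doubling or halving. The part of signal or RNA quality in this was not tested. Without knockout 1 the median change of the 77 genes was 0.019, with 35 below 0, and those of complexes I, IV and V were 0.028, 0.049 and 0.014, while complexes II and III stayed below 0, at -0.031 and -0.079. The sign of the median over all 77 members rested on this array. Without wild type 3, the medians of complexes I and IV also turned above 0, at 0.021 and 0.039. On wild type 1, the 7 complex III genes had a median deviation of 0.44 and the 12 complex IV genes one of -0.18. Both values rest on 1 array, where the embryo and array noise cannot be told apart.

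**Figure D3:**
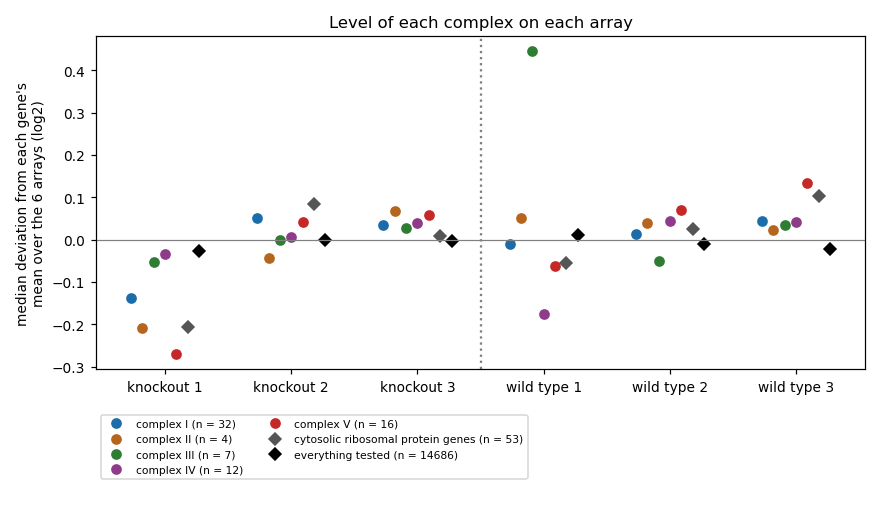
Median deviation of the genes of each complex from their own mean over the 6 arrays, in log2 units, for knockout 1 to 3 on the left and wild type 1 to 3 on the right, with ribosomal protein genes and everything tested as diamonds. Complexes I, II and V and the ribosomal protein genes are low on knockout 1, between -0.14 and -0.27. On wild type 1 complex III lies at 0.44 and complex IV at -0.18.

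Where a gene had more than 1 tested probe, the changes of its probes were compared within the same arrays. The part of technical spread in their differences was not tested. Of 21 such genes, 9 had probes of both signs (Atp5j, Atp5pb, Cox5b, Cox6b1, Ndufa5, Ndufaf3, Ndufaf5, Ndufc1 and Ndufv2). For Atp5j this rests on a probe that was not detected on any knockout array and was tested only through its wild type values. The second Ndufaf3 probe was detected on 2 knockout and 2 wild type arrays, and the second Atp5pb probe on 2 and 3. The change differed between probes of a gene by a median of 0.175 and by at most 0.656, for Ndufaf3, beside a median size of 0.123 for the change of a member. The 5 members at an unadjusted p under 0.05 each had 1 tested probe and no second probe to set beside it.

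The surrounding mitochondrial pathways gave no called gene, and 1 glycolysis gene was called. Mitochondrially encoded subunits were not analysed here. Of electron carriers and related genes, 4 were tested. They were cytochrome c1 (Cyc1), the electron transfer flavoprotein subunit Etfa, its dehydrogenase Etfdh and the ATP synthase inhibitor Atpif1. None passed and 0 were under an unadjusted p of 0.05, with changes in that order of -0.0076, -0.38, -0.14 and 0.019. Cyc1 is itself a complex III subunit, but its symbol falls outside the rule. The complex III counts and median therefore leave it out.

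Factors that assemble the complexes had 20 of 32 tested genes below 0, a median of -0.045 and 0 called. At an unadjusted p under 0.05, 5 were lower and 0 higher, beside 3.96% and 3.49% of everything tested, and all knockout values lay below all wild type values for 8 genes and above them for 1, beside 6.48% and 5.66%. Uqcc2, needed to build cytochrome b into complex III, read 6.10, 6.56 and 5.47 in knockout embryos, against 7.34, 7.05 and 7.37 in wild type embryos. All knockout values were below the wild type values, with a change of -1.21 (SE 0.36, adjusted p = 0.459, limma). Atpaf1, a chaperone for the beta subunit of complex V, read 6.64, 5.63 and 6.12 in knockout embryos, against 6.69, 7.69 and 7.74 in wild type embryos, where wild type 1 lay just above knockout 1. Its change was -1.24 (SE 0.41, adjusted p = 0.529). Cox17, the copper chaperone of complex IV, differed by -0.56 (SE 0.17, adjusted p = 0.475), Cox18 by -0.63 (SE 0.19, adjusted p = 0.476) and Ttc19, a complex III factor, by -0.36 (SE 0.15, adjusted p = 0.648). Cox18 read only 5.05, 5.08 and 5.22 in knockout embryos. The second Atp5j probe, not detected in the knockout, read 5.01 to 5.05 there, so the Cox18 change may be only a bound. Tmem70, also among the 8 genes, read 5.08, 5.12 and 5.24 in knockout embryos, against 5.45, 5.41 and 6.66 in wild type embryos. Its change may likewise be only a bound.

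In the tricarboxylic acid cycle and pyruvate dehydrogenase, 9 of 16 tested genes were below 0, the median was -0.046, and 0 were called. At an unadjusted p under 0.05, 2 of the 16 were lower and 0 higher, beside 3.96% and 3.49% of everything tested. Citrate synthase, Cs, read 7.11, 8.03 and 7.85 in knockout embryos, against 8.36, 8.36 and 8.39 in wild type embryos. The knockout values were all lower and more spread, with a change of -0.71 (SE 0.26, adjusted p = 0.579, limma). Fumarase, Fh1, differed by -0.41 (SE 0.18, adjusted p = 0.665), Sucla2 by 0.47 (SE 0.36) and Pdhb by 0.44 (SE 0.44).

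Among outer membrane, import and carrier genes 13 of 16 were below 0, with a median of -0.079 and 0 called. At an unadjusted p under 0.05, 1 was lower and 1 higher, beside 3.96% and 3.49% of everything tested. All knockout values lay below all wild type values for 5 of the 16 (Slc25a5, Vdac1, Vdac2, Vdac3 and Tomm20) and above them for 0, beside 6.48% and 5.66% of everything tested. The adenine nucleotide translocase Slc25a5, which exchanges ADP for ATP, read 9.72, 9.93 and 9.82 in knockout embryos, against 10.13, 10.25 and 10.28 in wild type embryos. The change was -0.40 (SE 0.12, adjusted p = 0.476, limma). The channel genes Vdac1 and Vdac3 differed by -0.25 and -0.41, and Tomm22, of the import pore, by 0.47 (SE 0.20, adjusted p = 0.668). Regulators of mitochondrial biogenesis were split evenly, 8 of 16 below 0, with 0 called. At an unadjusted p under 0.05, 1 was lower and 0 higher, beside the same 3.96% and 3.49%. Polg, the mitochondrial DNA polymerase, differed by -0.58 (SE 0.23, adjusted p = 0.626), the coactivator Ppargc1b by 0.82 (SE 0.40), Gabpb2 by -0.55 (SE 0.38) and Polrmt by 0.68 (SE 0.52). Some of these values were near the level of undetected probes, so the changes may be partly bounds. They were 4.85 and 4.92 for Polg in knockout 1 and 3, and 4.93 for Gabpb2 in knockout 1. For Ppargc1b they were 5.06 and 4.81 in wild type 1 and 3.

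Glycolysis had 9 of 15 tested genes above 0 and a median of 0.032, and 1 was called, beside 0.157% of everything tested. At an unadjusted p under 0.05, 1 was higher and 1 lower, beside 3.49% and 3.96% of everything tested. All knockout values lay above all wild type values for 1 gene and below them for 1, beside 5.66% and 6.48%. Slc2a3, a high-affinity glucose transporter, read 10.73, 10.87 and 10.77 in knockout embryos, against 10.03, 9.71 and 9.73 in wild type embryos. It rose by 0.97 (SE 0.13, adjusted p = 0.0410, limma). Slc2a1, the common glucose transporter of epithelia, read 10.03, 9.98 and 10.24 in knockout embryos, against 10.50, 10.47 and 10.37 in wild type embryos, all lower in the knockout, with a change of -0.36 (SE 0.12, adjusted p = 0.531). Ldhb was at 0.31 (SE 0.19) and Pfkl at 0.32 (SE 0.21). Without wild type 2, 0 of 14000 features passed, Slc2a3, Maf and Prox1 included, and 5.72% were under an unadjusted p of 0.05.

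**Figure D4:**
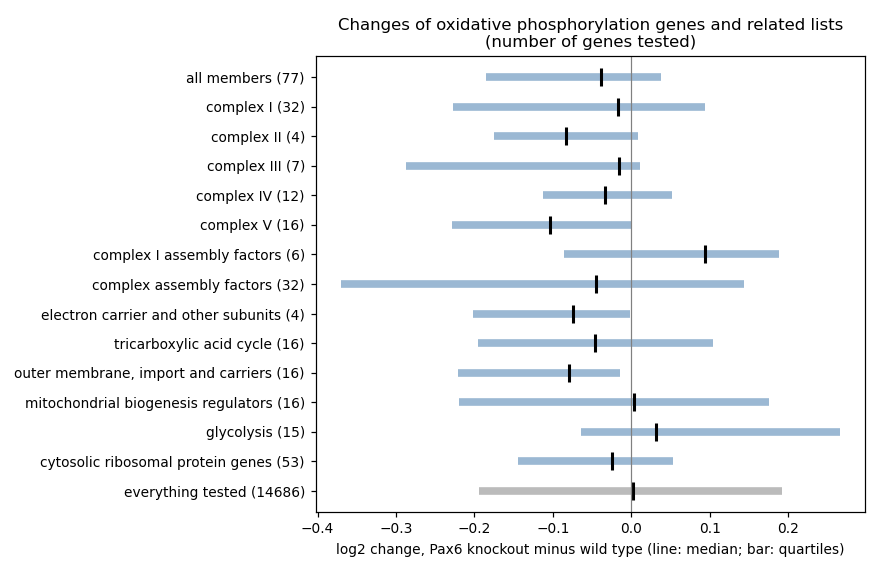
Median (line) and quartiles (bar) of the log2 change, Pax6 knockout minus wild type, for the oxidative phosphorylation genes, each complex, related gene lists and everything tested, with the number of genes in parentheses. All medians of the complexes lie between -0.10 and -0.016, beside 0.0022 for everything tested.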

How the data were processed

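RNA of 3 Pax6 knockout and 3 wild type embryos was measured, 1 array per embryo, on 1 BeadChip per the labels. The deposited linear intensity of 46632 probes was not background-subtracted, and came from GenomeStudio per the submitters' processing notes, with no version stated. The authors' table also gives a detection p-value and the bead count behind each probe. The authors' second table holds normalized intensity, by a method not given in the sources used here, and served as an alternative. Gene symbols came from the platform annotation and chromosomes from RefSeq (GRCm38.p6).

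The neqc function of limma 3.58.1 (R 4.3.3) corrected the background, added 16, normalized by quantiles and took log2. Of the probes, 19381 had a detection p below 0.05 on 3 or more arrays. The brightest per gene was used and unnamed probes stood alone, 14686 in all. The genotypes were compared by lmFit and eBayes, using a variance trend and Benjamini-Hochberg adjustment over all 14686. The precision is limited by the 3 arrays per genotype. The fit was tested on simulated data. Lists are described by counts and medians without a test.

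Members, gene lists and naming rule were chosen with earlier results of these data known. Named were members at an unadjusted p under 0.05, up to 4 per complex and per pathway list by p, isoforms, X-linked members, and members with conflicting probes or detected in 1 genotype. Nrf1, Gabpa, Yy1, Ttc19, Tmem70, Vdac2, Tomm20, Ndufab1, and the other members given with values were named for their role or to complete a complex or count. Alternatives covered the filter, background correction, offset, the authors' table, median scaling, variance trend, array weights, probe choice, the replicate number as a block, X- and Y-linked genes, and each array left out. Promoter motifs were counted with Python 3.11.15. Bead standard errors were not used.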

Additional observations from a re-analysis of the deposited data

How the results depend on the processing

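No oxidative phosphorylation gene passed the adjusted threshold under any of the alternatives, where the smallest adjusted p of a member was 0.230 (limma), and at an unadjusted p under 0.05 between 1 and 3 members were higher and between 1 and 4 lower. The 5 members at that level kept their direction in all 18 settings that gave them a value. Most of these settings could hardly have turned it. The genotypes did not overlap for these 5, and each had only 1 tested probe. Over everything tested, 23 features passed (8 higher and 15 lower), against 6 without a filter, 69 with a stricter filter (every array of a genotype detected at p below 0.01) and 0 to 5 with 1 array left out. Quantile normalization gives every array the same distribution of values. Median scaling only aligns the median over all 46632 probes, of which 19381 were kept, so the tested features need not centre on 0. With median scaling the median of everything tested was -0.15 and 4 features were called higher and 15 lower, and the median of the members was -0.23 with 67 of 77 below 0. By complex it was -0.23 for I, -0.29 for II, -0.23 for III, -0.21 for IV and -0.28 for V. Relative to everything tested, the members then lay at -0.084, beside -0.040 with quantile normalization. Among the 37 named members, 8 turned sign under median scaling and up to 11 with 1 array left out, none of them called in any setting.

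With the replicate number as a block, 1 feature was called in place of 23 and 0 members, with 1 member higher and 2 lower at an unadjusted p under 0.05. Deviations of same-numbered embryos correlated at -0.047, -0.024 and -0.036, so the numbers gave no sign of pairing. With 1 array left out, the median of the members ran from -0.091 to 0.019, that of complex III from -0.20 to -0.079 and that of complex V from -0.20 to 0.014. With array weights the median of complex I was 0.0035. Signal over background and 3 embryos a genotype limit what can be seen, since Ndufb11, Ndufb7 and Atp5o were not detected on every array.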
